A study of Mus musculus with 9 samples.

Results

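The comparison described here set the meniscus against the cruciate ligament of the embryonic mouse knee. Its members were the 3 arrays labelled meniscus and the 3 arrays labelled cruciate ligament, chosen by their titles, 6 of the 9 arrays of the study. The other 3 arrays held articular cartilage, and their values are given beside the comparison for reading only. All samples were total RNA from hindlimbs of CD-1 embryos, an outbred mouse stock, at embryonic day 16 (E16), and the labels give no mutation and no treatment for any of them. RNA was amplified before labelling in every tissue. No label says whether tissues of several embryos were pooled, or whether replicates stand for different animals. The p-values therefore refer to the spread among these arrays alone, part of which may be technical. Levels of the X-linked RNA Xist and the Y-linked gene Eif2s3y, given under the closing observations, differed between arrays of each tissue, so those arrays did not all hold RNA of the same embryos.

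The menisci are wedge-shaped fibrocartilages that sit between femur and tibia and spread load, whereas the cruciate ligaments are cords of aligned collagen fibres that tie the bones to each other. Both form with the joint from cells of the interzone, the flattened layer marked by Gdf5 where a joint will cavitate. Cartilage formation rests on the transcription factor Sox9 and its partners Sox5 and Sox6, and its matrix on type II collagen and aggrecan; tendons and ligaments build mainly type I collagen and express the transcription factors Scx and Mkx.

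The arrays were Illumina bead arrays, on which each of 45281 probes gives an intensity and a detection p-value, the chance that a spot without target would be as bright. A probe was taken as detected at a detection p-value under 0.01. The arrays of the 2 tissues came from separate sets. The meniscus arrays had median scanner intensities of 93.4 to 101.2 and detected 28.9% to 31.9% of the probes, whereas the ligament arrays had medians of 147.4 to 209.7 and detected 18% to 20.9%. The cartilage arrays, which share the set of the meniscus, detected 29.4% to 35.6%. Array set and tissue therefore cannot be told apart for any difference below. Replicates also agreed less within ligament. The median correlation between arrays was 0.947 among meniscus arrays, 0.831 among ligament arrays and 0.830 between meniscus and ligament arrays, and the median SD of a gene was 0.24 in meniscus and 0.50 in ligament on the log2 scale.

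Levels are given as normalised log2 intensity, so a difference of 1 is a doubling, and every difference is meniscus minus ligament. The test covered 6617 named genes whose probe was detected on all 3 arrays of at least one of the tissues. Of these, 279 had an adjusted p under 0.05 (limma, Benjamini-Hochberg adjustment over all tested features), which is 4.22% of the genes tested. They divided into 182 genes higher in meniscus (2.75%) and 97 genes lower in meniscus (1.47%). The median rise among called genes was 1.55 and the median fall was -1.67, and the smallest adjusted p was 0.0063. With no adjustment, 1029 genes were higher and 504 lower at p under 0.05. The median of all named genes stood at 0.18, although each array had been centred on its own median, and relative to that median 0 of the 279 calls changed sign. In all 279 called genes the meniscus and ligament arrays did not overlap, as was true of 31.0% of all genes tested. The calls needed all 3 meniscus arrays. Without meniscus 1, 2 or 3 in turn, 0 genes were called by limma, while 691, 717 and 699 genes were higher and 355, 332 and 359 lower with an unadjusted p under 0.05. Without ligament 1 the counts were 329 higher and 152 lower.

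Detection bears on how the calls are read, since a gene detected in 1 tissue alone could pass the filter only through that tissue and its direction was thereby largely fixed. Among 870 genes detected on all 3 meniscus arrays and on no ligament array, 117 were called higher and 0 lower. Among 3459 genes detected on all 6 arrays, 33 were called higher and 68 lower, with a median difference of -0.03. A further 10 genes were detected on every ligament array and on no meniscus array, and all 10 were called lower. The other 2278 genes were detected on all 3 arrays of 1 tissue and on only some arrays of the other. They too passed the filter through 1 tissue alone, and 32 were called higher and 19 lower. When only features detected on all 6 arrays entered the fit, 126 of 3500 genes were called higher and 139 lower, so that 47.5% of calls were higher, against 65.2% in the fit reported here. With undetected values raised to the lowest detected signal of their array, a setting added after the data were seen, 159 genes were called higher and 155 lower (50.6% higher), and the median of all genes was -0.10. For genes undetected on all arrays of a tissue only a bound is known. Such a bound is written as at least N-fold, taking the dimmer tissue at the higher of the probe's own signal and the lowest detected signal on each array, which lay between 4.96 and 5.11 on meniscus arrays and between 5.79 and 6.11 on ligament arrays.

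**Figure D1:**
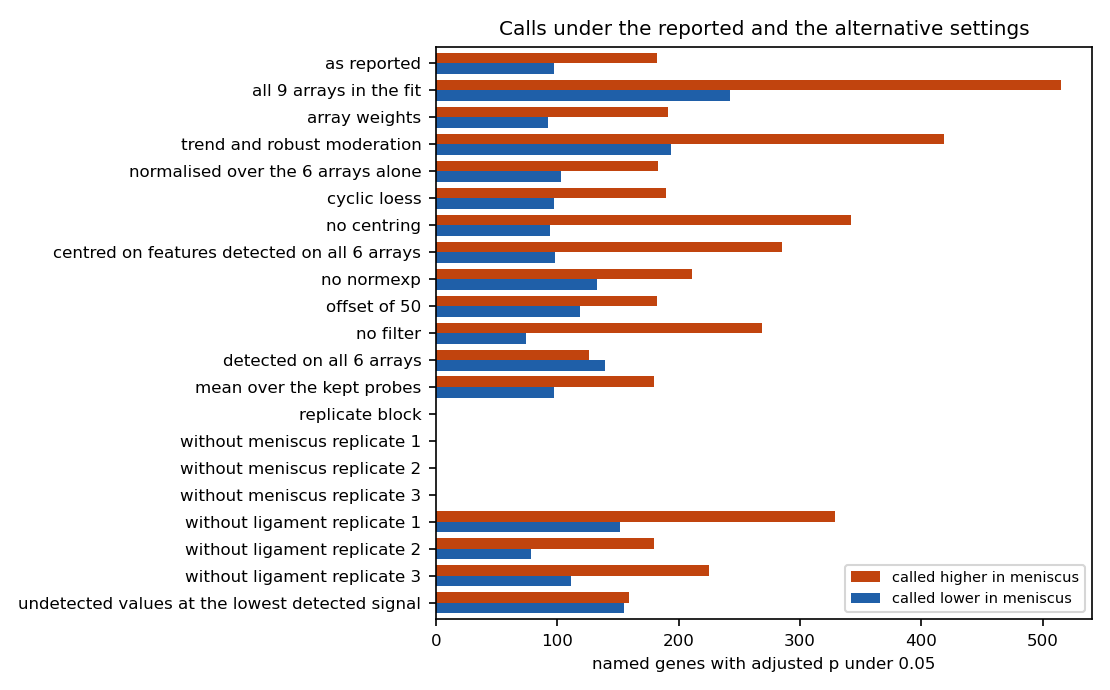
Number of named genes called at adjusted p under 0.05 (x axis) in each direction, as reported and under each alternative setting of the processing and the fit (y axis). The reported fit has 182 genes higher and 97 lower, and the bars are empty without any 1 meniscus array and with the replicate block.

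**Figure D2:**
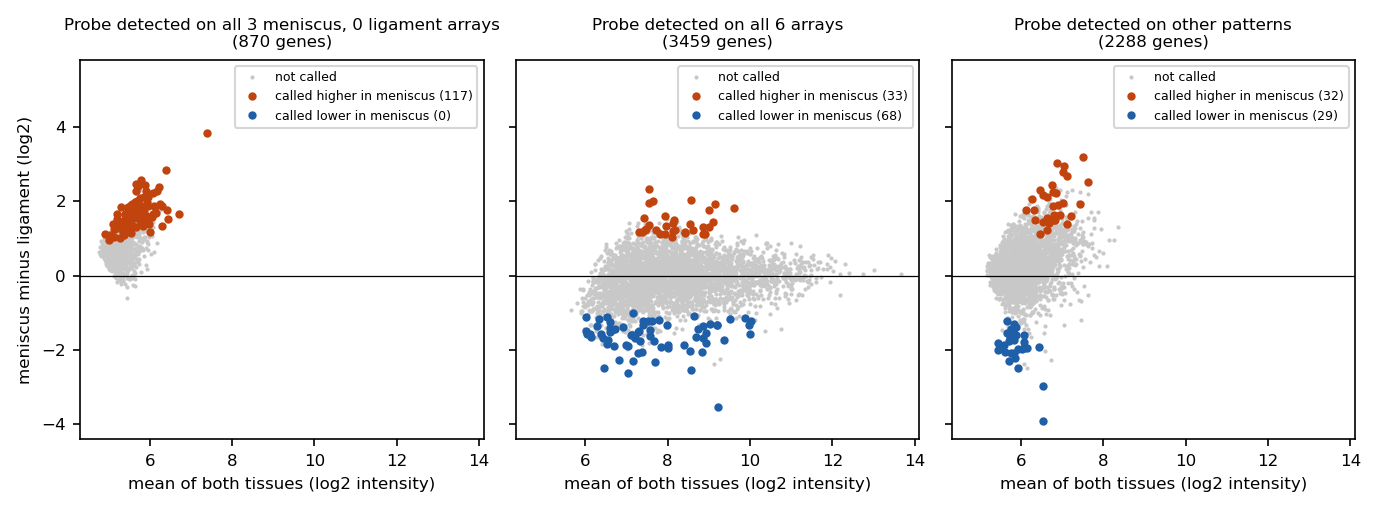
Each point is 1 tested named gene, with its mean log2 intensity over meniscus and ligament on the x axis and meniscus minus ligament (log2) on the y axis, in 3 panels by detection. Calls among the 870 genes without a detected ligament spot were all higher in meniscus (117), whereas genes detected on all 6 arrays had 33 calls higher and 68 lower.

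The labels were first read against the genes that define these tissues. Type I collagen chain Col1a1, the main collagen of ligament, was at 9.54, 9.21 and 9.47 on meniscus arrays, against 10.62, 10.72 and 10.54 on ligament arrays. It was 2.33-fold lower in meniscus (adjusted p = 0.032, limma), and the tissues did not overlap. Mkx, a homeobox factor required for normal tendon collagen in mice, was at 8.45, 8.52 and 8.66 on meniscus arrays and at 9.64, 9.80 and 10.15 on ligament arrays. It was 2.5-fold lower in meniscus with the same adjusted p. The partner chain Col1a2 differed by 0.04 ± 0.23 (SE, adjusted p = 0.932, limma). Sox9, the chief chondrocyte transcription factor, was at 11.74, 11.20 and 11.32 on meniscus arrays and at 10.41, 10.39 and 10.85 on ligament arrays. These ranges did not overlap, but the difference of 0.87 ± 0.26 (SE) missed the threshold (adjusted p = 0.099, limma). Col2a1, the type II collagen chain, was at 9.94, 9.92 and 10.57 on meniscus arrays and at 10.70, 10.48 and 11.04 on ligament arrays, with overlapping ranges and a difference of -0.59 (adjusted p = 0.256, limma). The ligament arrays thus carried Col2a1 at a level that was not below that of the meniscus arrays. Acan, the aggrecan core protein, differed by 0.62 (adjusted p = 0.354, limma), and a second probe of the gene gave -0.73. Of the tendon markers, Scx was detected on 0 meniscus arrays and 1 ligament array, and Tnmd, the membrane protein tenomodulin, on none of the 6, so neither was tested. Prg4, the lubricin of joint surfaces, had no named probe.

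Among the genes lower in meniscus were proteins that bind, process or surround collagen fibres. Fmod, fibromodulin, a small leucine-rich proteoglycan that binds fibrillar collagen, was at 5.88, 5.77 and 6.37 on meniscus arrays, against 8.45, 8.35 and 8.10 on ligament arrays. This was 4.90-fold lower in meniscus (adjusted p = 0.017, limma), and a second probe gave -1.01. Fmod was the single call among 8 tested small leucine-rich proteoglycans, whose median difference was -0.10. Pcolce2, which enhances the enzyme that trims the C-propeptide of procollagen, was at 5.77, 5.37 and 6.03 on meniscus arrays, against 9.0, 7.66 and 8.35 on ligament arrays. It was 6.10-fold lower in meniscus (adjusted p = 0.023, limma) and the 1 call among 20 genes of collagen processing and cross-linking, whose median was 0.17. A second Pcolce2 probe, undetected in both tissues, gave -0.22. Cartilage had Pcolce2 at 7.88, 8.79 and 7.96, a range that overlapped that of ligament and lay above every meniscus array. Mfap4, a microfibril-associated protein of elastic fibres, was at 7.59, 7.30 and 7.46 on meniscus arrays and at 9.13, 9.41 and 9.45 on ligament arrays. It was 3.68-fold lower in meniscus (adjusted p = 0.017, limma), while the other 9 tested elastic fibre genes were not called.

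Promoter sequence is shown for these 2 genes because they lead the falls among matrix genes. The stretches are 300 bases of RefSeq sequence (mouse build GRCm38.p6) around the first listed start of the gene, mostly upstream of it, written along the gene's strand. Capitals mark matches, on either strand, to 4 searched motifs: the TATA box TATAAA, the GC box GGGCGG, the AP-1 site TGANTCA and the EGR site GCGNGGGCG. The window of Fmod (chr1:134037004-134037303, plus strand) held no match, and that of Pcolce2 (chr9:95637378-95637677, plus strand) held 2 GC boxes.
Fmod: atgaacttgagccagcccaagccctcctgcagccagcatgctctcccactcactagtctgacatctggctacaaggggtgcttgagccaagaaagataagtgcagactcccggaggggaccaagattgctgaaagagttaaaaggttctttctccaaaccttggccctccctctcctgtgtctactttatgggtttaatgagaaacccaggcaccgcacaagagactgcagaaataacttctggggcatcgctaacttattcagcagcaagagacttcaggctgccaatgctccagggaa
Pcolce2: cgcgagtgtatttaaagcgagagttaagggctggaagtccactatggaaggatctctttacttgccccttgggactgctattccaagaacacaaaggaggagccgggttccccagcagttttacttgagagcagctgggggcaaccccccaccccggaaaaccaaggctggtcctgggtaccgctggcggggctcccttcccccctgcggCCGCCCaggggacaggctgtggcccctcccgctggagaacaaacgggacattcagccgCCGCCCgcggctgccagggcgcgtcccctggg

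The rises included collagens outside the main fibril types. Col8a1, a short-chain network collagen, was at 8.82, 9.67 and 9.45 on meniscus arrays and undetected on ligament arrays, where its signal was 5.75, 5.56 and 5.15. It was at least 10.4-fold higher in meniscus (adjusted p = 0.0099, limma), and a second probe gave a smaller difference of 0.65. Col15a1, a collagen of the basement membrane zone, was at 8.31, 8.80 and 8.41 on meniscus arrays and at 6.90, 5.07 and 4.74 on ligament arrays, of which only the first detected it. The fitted difference was 7.68-fold (adjusted p = 0.039, limma), or 4.63-fold with the undetected arrays at their lowest detected signal. Both were the calls among 7 tested collagens of these classes, and the median of that list was -0.29. Col22a1, a collagen associated with fibrils at tissue junctions such as that of muscle and tendon, was at 8.2, 8.11 and 7.63 on meniscus arrays, against 6.2, 5.7 and 4.72 on ligament arrays, 1 of which detected it (5.43-fold as fitted, or 3.78-fold with undetected arrays at that floor; adjusted p = 0.030, limma). A second Col22a1 probe, detected on 1 meniscus array and on no ligament array, gave -0.255. Col6a1, a chain of the beaded-filament collagen VI, was at 9.37, 9.18 and 9.15 on meniscus arrays and at 7.98, 8.27 and 7.81 on ligament arrays. It was 2.32-fold higher (adjusted p = 0.036, limma), and 2 further probes also gave positive differences of 1.97 and 0.41. Fibrous tissue collagens as a list thus held 1 call up, Col6a1, and 1 down, Col1a1, among 11 tested, with a median of 0.04. On these 4 genes the cartilage means lay nearer those of meniscus, at 8.83 for Col8a1, 8.82 for Col15a1, 7.25 for Col22a1 and 9.30 for Col6a1.

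The promoter window of Col6a1 (chr10:76725995-76726294, minus strand of GRCm38.p6) held 1 match to the AP-1 motif, in capitals.
Col6a1: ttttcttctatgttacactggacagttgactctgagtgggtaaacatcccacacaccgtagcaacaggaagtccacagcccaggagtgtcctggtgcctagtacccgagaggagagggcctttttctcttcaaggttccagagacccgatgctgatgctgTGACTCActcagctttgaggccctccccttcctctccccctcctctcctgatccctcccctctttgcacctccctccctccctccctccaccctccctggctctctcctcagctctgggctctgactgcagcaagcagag

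No gene of the cartilage matrix list was called among 14 tested (0 of 14, limma), against 1 higher and 2 lower with an unadjusted p under 0.05. The median of that list was 0.07. Its brightest members were Col2a1, Matn4 at 9.52 in meniscus and 10.72 in ligament, and Col11a1 at 9.26 in meniscus and 10.06 in ligament, with adjusted p of 0.128 and 0.132 (limma). Cartilage stood apart from both tissues on this list, since the mean level over the list was 7.5, 7.39 and 8.03 on meniscus arrays, 7.30, 7.33 and 8.30 on ligament arrays and 9.82 to 10.32 on cartilage arrays. The ligament arrays disagreed on these genes, and most of the list, like its mean level, was highest on ligament 3. Matn1 was at 5.58, 7.46 and 10.13 and Col9a1 at 6.32, 5.67 and 9.67 on ligament arrays, highest on ligament 3. Acan and Prelp were lowest on that array. With ligament SDs of 2.28 for Matn1 and 2.14 for Col9a1, the absence of calls does not show equal levels. Chondrocyte transcription factors had 2 calls among 12 tested and a median of 0.11. Nfatc1, a calcineurin-dependent factor, was at 7.13, 7.48 and 7.28 on meniscus arrays and undetected in ligament, at least 2.59-fold higher (adjusted p = 0.023, limma). Other kept probes of Nfatc1 gave 1.32, 0.54 and 0.66, and probes undetected in both meniscus and ligament gave -0.21 and -0.53. Sox5 was at 7.99, 8.53 and 8.18 on meniscus arrays and at 7.16, 6.58 and 6.89 on ligament arrays, 2.56-fold higher (adjusted p = 0.040, limma). Of the 4 other kept probes of Sox5, 3 gave positive differences of 1.37 to 1.58 and 1 gave a fall of about -1.0. The list of tendon and ligament markers held calls in both directions, with Egr1 higher, Mkx and Fmod lower and the remaining 9 of 12 not called; its median was -0.14.

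Laminins and related basement membrane proteins had 0 calls among 7 and a median of -0.13; 0 were higher and 1 was lower with an unadjusted p under 0.05. Their brightest members were Lamb1, with a difference of -0.64 (adjusted p = 0.144, limma), Agrn at 9.27 in meniscus and 9.45 in ligament, and Hspg2, perlecan, at 9.3 in meniscus and 9.05 in ligament. Matrix proteases and their inhibitors had 0 calls among 20, with 3 higher and 1 lower with an unadjusted p under 0.05 and a median of -0.09. The inhibitor Timp3 was at 9.68 in meniscus and 9.22 in ligament, the shedding enzyme Adam17 at 9.39 in meniscus and 9.52 in ligament, and the secreted protease Htra1 at 9.07 in meniscus and 9.79 in ligament. The tested members of these groups were thus not separated at the 0.05 threshold.

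**Figure D3:**
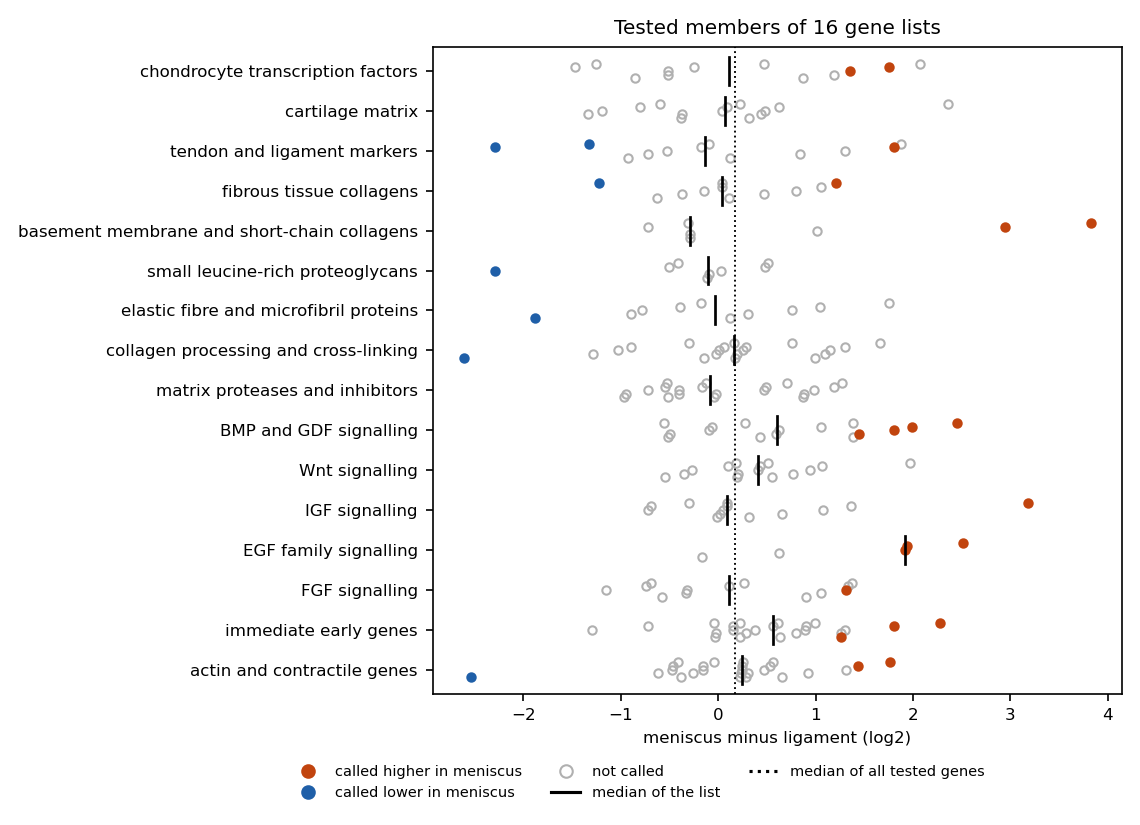
Each point is a tested member of 1 of 16 gene lists, placed by meniscus minus ligament (log2); filled points were called at adjusted p under 0.05, bars are list medians and the dotted line is the median of all tested genes (0.18). EGF family signalling had 3 members called of 5 tested, BMP and GDF signalling 4 of 16, and matrix proteases and Wnt signalling 0 of 20 and 0 of 15. Over all tested genes 4.22% were called.

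In the lists of growth factor signalling, Gdf5, the interzone ligand of the bone morphogenetic protein (BMP) family, was called higher, at 6.25, 7.42 and 7.03 on meniscus arrays and undetected in ligament, where its signal was 4.37, 4.44 and 4.51. It was at least 1.96-fold higher in meniscus (adjusted p = 0.020, limma), and a second probe gave 1.80. The related ligands Gdf6, Gdf10 and Bmp6 were also detected on all 3 meniscus arrays and on no ligament array. Gdf10 was at 6.26, 7.24 and 6.38 on meniscus arrays, at least 1.63-fold higher (adjusted p = 0.026, limma). Bmp6 was at 6.04, 6.68 and 6.71 on meniscus arrays, at least 1.46-fold higher (adjusted p = 0.028, limma). Gdf6, a close relative of Gdf5 also expressed at forming joints, was at 6.63, 6.60 and 6.66 on meniscus arrays, at least 1.63-fold higher (adjusted p = 0.042, limma). The 4 ligands were the calls among 16 tested BMP and GDF genes (4.22% over all genes), and each entered the test through its detection in meniscus alone. With undetected values at the lowest detected signal, 0 of the 16 were called, and Gdf5 differed by 0.97 (adjusted p = 0.103, limma). The list's median was 0.61, or 0.57 with undetected genes set at their bound. The ligand Bmp4 differed by 0.27 (adjusted p = 0.756, limma), and the receptors, Smads and inhibitors of the list were also not called. Cartilage had Gdf5 at 5.68, 6.55 and 7.36, Gdf10 at 7.07, 8.35 and 7.67 and Gdf6 at 4.79, 5.19 and 6.63, so Gdf6 lay below or at the meniscus level on every cartilage array.

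Ligands and an inhibitor of the epidermal growth factor (EGF) receptor were also called. Hbegf, a heparin-binding ligand, was at 9.22, 8.55 and 8.89 on meniscus arrays, against 5.88, 5.79 and 7.46 on ligament arrays, where 2 arrays detected it. It was 5.70-fold higher in meniscus as fitted (adjusted p = 0.039, limma). A second Hbegf probe, undetected in both tissues, gave -0.30. Btc, betacellulin, was at 6.47, 6.57 and 6.58 on meniscus arrays and undetected in ligament, at least 1.53-fold higher (adjusted p = 0.017, limma, and 0.10 with undetected values at the lowest detected signal). Errfi1, an inhibitor that the receptor's own signalling induces, was at 8.36, 9.0 and 8.22 on meniscus arrays and at 7.3, 6.3 and 6.17 on ligament arrays (3.83-fold, adjusted p = 0.041, limma). These were 3 of only 5 tested members of a list of 16, where 4.22% of all genes tested were called. Hbegf and Btc both passed the filter through meniscus alone, since neither was detected on all 3 ligament arrays. The list's median of 1.92 dropped to 0.62 with the undetected gene at its bound.

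Insulin-like growth factor (IGF) genes had 1 call among 13. Igfbp2, a secreted protein that binds IGFs, was at 9.12, 9.04 and 9.16 on meniscus arrays, against 6.13, 6.15 and 5.5 on ligament arrays, 2 of which detected it. It was 9.09-fold higher in meniscus as fitted (adjusted p = 0.0099, limma), with the meniscus arrays within 0.06 (SD) of one another. The median of all 13 was 0.09. Fibroblast growth factor (FGF) genes also had 1 call among 13: the receptor Fgfr2 was at 9.60, 9.40 and 9.53 on meniscus arrays and at 8.55, 7.79 and 8.27 on ligament arrays, 2.47-fold higher (adjusted p = 0.043, limma). Further Fgfr2 probes, detected on at most 1 meniscus array and on no ligament array, gave -0.62, -0.35 and -0.10.

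Wnt, transforming growth factor beta (TGF-beta) and hedgehog genes had no calls. Of 15 Wnt genes, 2 were higher and 0 lower with an unadjusted p under 0.05, and the median was 0.41. The brightest were Ctnnb1, beta-catenin, at 11.76 in meniscus and 11.55 in ligament, Sfrp2 at 11.08 in meniscus and 10.57 in ligament, and Dkk3 at 9.95 in meniscus and 10.21 in ligament. Of 14 TGF-beta genes, 0 were higher or lower even at an unadjusted p under 0.05, and the median was 0.12. Its bright members were Postn, periostin, at 11.87 in meniscus and 11.70 in ligament, Tgfbi at 10.06 in meniscus and 9.94 in ligament, and Smad3 at 9.75 in meniscus and 9.57 in ligament. Of 8 hedgehog genes, 3 were higher and 0 lower with an unadjusted p under 0.05, with a median of 0.26. Gas1, a hedgehog co-receptor, was at 9.67 in meniscus and 8.82 in ligament (adjusted p = 0.068, limma), the transcription factor Gli3 at 8.96 in meniscus and 8.03 in ligament (adjusted p = 0.071, limma), and the co-receptor Cdon at 8.63 in meniscus and 8.38 in ligament.

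Patterning genes had 1 call. Among 16 limb and joint factors the call was Snai3, a Snail family repressor, at 8.43, 8.32 and 8.51 on meniscus arrays and at 4.76, 5.45 and 6.71 on ligament arrays, of which 1 detected it (6.88-fold as fitted, or 4.91-fold with undetected arrays at their lowest detected signal; adjusted p = 0.031, limma). The list's median was 0.08. Hox genes had 0 calls among 10, with 2 higher and 3 lower with an unadjusted p under 0.05. Hoxa11, a gene of the middle limb segment, was at 8.15 ± 1.07 in meniscus and 10.40 ± 0.37 in ligament (SD, n = 3 each; adjusted p = 0.060, limma). Hoxd8 was at 9.35 in meniscus and 9.21 in ligament, and Hoxc10 at 8.43 in meniscus and 8.56 in ligament.

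Immediate early genes, which cells switch on within minutes of a stimulus, were called higher in 3 of 23 cases and lower in 0, where 2.75% of all genes were higher and 1.47% lower. Egr1 was at 10.69, 10.63 and 10.19 on meniscus arrays, against 9.08, 8.63 and 8.38 on ligament arrays, 3.49-fold higher (adjusted p = 0.026, limma). Its relative Egr3 was at 7.14, 6.43 and 6.85 on meniscus arrays and undetected in ligament, at least 1.84-fold higher (adjusted p = 0.018, limma, and 0.074 with undetected values at the lowest detected signal). Egr3 passed the filter through its detection in meniscus alone, and a second probe, undetected in both tissues, gave -0.86. Btg2, an antiproliferative early gene, was at 7.86, 8.17 and 8.28 on meniscus arrays and at 6.84, 6.64 and 7.03 on ligament arrays, 2.40-fold higher (adjusted p = 0.036, limma). The median of the list was 0.56, or 0.45 with undetected genes at their bound, and 18 of its 23 members were positive, where 4014 of all 6617 genes were. The promoter window of Btg2 (chr1:134079106-134079405, minus strand of GRCm38.p6) held 3 GC boxes, 2 of them overlapping, and 1 EGR motif.
Btg2: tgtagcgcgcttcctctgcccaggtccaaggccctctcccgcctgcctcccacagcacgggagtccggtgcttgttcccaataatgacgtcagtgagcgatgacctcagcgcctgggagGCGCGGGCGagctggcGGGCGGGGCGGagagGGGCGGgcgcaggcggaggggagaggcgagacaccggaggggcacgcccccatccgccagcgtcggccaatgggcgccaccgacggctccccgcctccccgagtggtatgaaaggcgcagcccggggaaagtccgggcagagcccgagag

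The same motifs were counted in the promoter windows of all called genes. A window was in the table for 143 of the 182 genes called higher, 69 of the 97 called lower and 5394 of the 6617 tested. The EGR motif lay in 14.0% of windows of genes called higher, 13.0% of those called lower and 11.2% of all tested genes, against 5.55% of all 27025 windows. The GC box lay in 58.0%, 66.7% and 67.9% of the same sets in that order and in 35.9% of all windows. The AP-1 motif lay in 3.50% of windows of genes called higher, 2.90% of those called lower and 4.0% of tested genes, and the TATA box in 9.79%, 7.25% and 7.43%. These shares are descriptions of letters in a window and carry no test.

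The cytoskeletal genes moved individually. Mid1, a ubiquitin ligase that binds microtubules, was at 7.38, 6.92 and 8.04 on meniscus arrays, against 10.52, 11.22 and 11.24 on ligament arrays. It was 11.7-fold lower in meniscus (adjusted p = 0.017, limma), the largest fall among called genes detected on all 6 arrays, and the 1 call among 15 microtubule genes, whose median was 0.29. Cald1, caldesmon, an actin-binding regulator of contraction, was at 7.43, 6.93 and 7.53 on meniscus arrays and at 10.27, 10.01 and 9.21 on ligament arrays (5.8-fold lower, adjusted p = 0.020, limma). Of 2 further kept probes of Cald1, 1 gave -2.61 and 1 gave 0.14. In the same list of 25 actin and contractile genes, with a median of 0.24, the LIM protein genes Csrp2 and Fhl2 were higher. Csrp2 was at 9.73, 10.19 and 9.75 on meniscus arrays and at 8.21, 8.73 and 7.44 on ligament arrays (3.39-fold, adjusted p = 0.046, limma). Fhl2 was at 5.98, 6.11 and 5.96 on meniscus arrays and its probe was undetected in ligament (adjusted p = 0.023, limma). A second probe of Fhl2, detected on 1 ligament array and on no meniscus array, gave -0.72, and with undetected values at the lowest detected signal the call was lost (adjusted p = 0.806). Among 18 adhesion genes, with a median of 0.36, Cntnap4, a neurexin-like protein, was at 6.53, 6.99 and 7.71 on meniscus arrays and undetected in ligament, at least 2.22-fold higher (adjusted p = 0.019, limma, and 0.073 with undetected values at the lowest detected signal). Its 2 other probes gave 2.80 and 0.61.

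The remaining genes among the 12 largest rises had varied roles. Thbd, the thrombin receptor thrombomodulin, was at 8.61, 8.44 and 8.08 on meniscus arrays, against 5.12, 4.57 and 6.40 on ligament arrays, 1 of which detected it (8.08-fold as fitted, or 5.11-fold with undetected arrays at their lowest detected signal; adjusted p = 0.027, limma). Slc9a3r1, a scaffold protein beneath the cell membrane, was at 8.59, 8.30 and 8.47 on meniscus arrays, against 6.05, 6.33 and 4.93 on ligament arrays, 2 of which detected it (6.43-fold as fitted, or 4.90-fold at that floor; adjusted p = 0.023, limma). Ralyl, an RNA-binding protein gene, was undetected in ligament and at 7.46, 8.05 and 7.92 on meniscus arrays, at least 3.69-fold higher (adjusted p = 0.018, limma). Cartilage lay well below meniscus on Ralyl, at 5.16, 5.78 and 6.06. Dkc1, the pseudouridine synthase dyskerin, was undetected in ligament and at 6.69, 7.05 and 7.59 on meniscus arrays, at least 2.27-fold higher (adjusted p = 0.017, limma), and a second probe gave 0.62.

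The remaining largest falls were led by Zc3hav1, a zinc finger protein that binds viral RNA. It was undetected on meniscus arrays, at 4.52, 4.41 and 4.77, and at 8.83, 8.17 and 8.48 on ligament arrays, at least 11.1-fold lower in meniscus (adjusted p = 0.0063, limma). Cartilage detected it at 5.58, 5.30 and 5.47, well below ligament. These values are those of the probe used. Further Zc3hav1 probes, undetected in both meniscus and ligament, gave -0.31, -0.73 and -0.27. Of the 10 tested interferon response genes Zc3hav1 was the 1 call, and their median was 0.03. Jrk, a DNA-binding nuclear protein gene, Hrob, a recombination factor gene, and Kng2, a kininogen gene, were likewise undetected in meniscus, at least 4.44-fold, 3.62-fold and 3.84-fold lower (adjusted p of 0.017, 0.017 and 0.020, limma). Pea15a, a small phosphoprotein gene, was at 5.70, 6.73 and 7.16 on meniscus arrays and at 9.27, 8.44 and 8.85 on ligament arrays (5.02-fold lower, adjusted p = 0.035, limma). Rin3, a regulator of Rab5 proteins, was at 5.72, 5.39 and 5.94 on meniscus arrays, against 7.78, 7.89 and 8.18 on ligament arrays (4.80-fold lower, adjusted p = 0.017, limma). Cst11, of the cystatin family, and the predicted gene Gm5936, which 2 meniscus arrays detected, were 5.63-fold and 7.82-fold lower (adjusted p of 0.017 and 0.021, limma). A second Cst11 probe, undetected in both meniscus and ligament, gave -0.31. In each of these 8 genes every cartilage array lay below every ligament array.

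**Figure D4:**
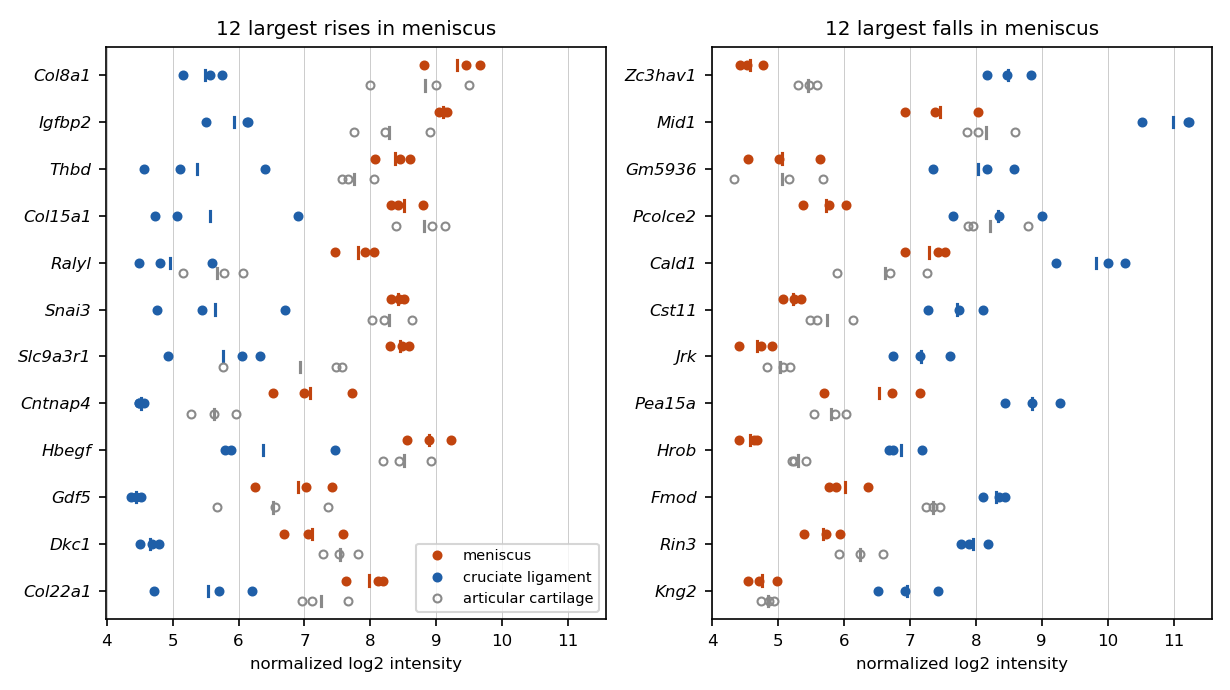
Normalised log2 intensity on each array for the 12 largest rises and the 12 largest falls among called genes, with meniscus, ligament and cartilage arrays as points and group means as bars. Meniscus and ligament do not overlap in any of the 24 genes. Cartilage means lie nearer meniscus for most, and nearer ligament for Pcolce2, Fmod, Ralyl, Cntnap4 and Slc9a3r1.

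Housekeeping and general cell function lists had called shares that can be read against the 4.22% of all genes. Among 52 cytosolic ribosomal proteins Rplp0, which 1 ligament array detected (4.69-fold as fitted, or 3.51-fold with undetected arrays at their lowest detected signal; adjusted p = 0.05, just under the threshold, limma), and Rpl26 (2.20-fold, adjusted p = 0.044) were higher and Rpl17 was 2.35-fold lower (adjusted p = 0.028), with a median of 0.32. Such genes have many processed copies in the mouse genome, so their probes may not be specific. Respiratory chain subunits had 2 calls among 64 and a median of 0.27: Atp5l was 2.25-fold higher (adjusted p = 0.049, limma) and Ndufs7 at least 1.28-fold higher (adjusted p = 0.034, and 0.408 with undetected values at that floor). Proteasome subunits had 2 calls among 31 and a median of 0.15. Psmb2 was 2.71-fold higher and Psmd10 was 2.35-fold higher (adjusted p of 0.026 and 0.028, limma), although another probe of Psmd10 gave -0.55. Other kept probes of Psmb2 gave 1.39 and 0.08. Among 32 cell cycle genes, with a median of 0.14, Cdkn1a, the kinase inhibitor p21, and Bub1b, of the spindle checkpoint, were at least 1.09-fold and 1.14-fold higher (adjusted p of 0.039 and 0.028, limma, and 0.788 and 0.585 with undetected values at the floor). Of 19 glycolysis and hypoxia genes, with a median of 0.11, Ppp1r3c, which targets a phosphatase to glycogen, was 2.17-fold higher (adjusted p = 0.044, limma). Of 24 genes of folding and export in the endoplasmic reticulum, with a median of -0.02, Mia3, needed to export large collagens, was 2.57-fold lower (adjusted p = 0.040, limma). Of 2 further kept probes of Mia3, 1 gave -1.56 and 1 gave 1.44. Other kept probes of Atp5l and Cdkn1a gave 0.65 and 0.41, and probes undetected in both tissues gave -0.25 and -0.08. In all, 59 called genes had a second kept probe, and in 21 of them at least 1 such probe went the opposite way.

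Markers of other cell types varied between arrays within both tissues. The mean level over 8 tested macrophage and osteoclast markers was 6.51, 8.06 and 7.67 on meniscus arrays, 8.02, 6.30 and 5.44 on ligament arrays and 5.15 to 5.51 on cartilage arrays. None of the 8 was called, 1 was higher with an unadjusted p under 0.05, and the bright members Aif1, Mrc1 and Tyrobp had ligament SDs of 2.13, 2.27 and 1.23. Ligament 1 was the highest ligament array on the macrophage, endothelial, erythroid, smooth muscle, skeletal muscle and Schwann cell lists, and the mean macrophage difference was 0.83 with it and 1.54 without it. In bulk tissue, fewer cells of a type and less RNA per cell cannot be told apart. Among 12 endothelial markers Thbd was called and the other 11, with a median of 0.14, were not. Cartilage also had Thbd, at 7.66, 7.57 and 8.05. Cldn5, Cdh5 and Pecam1 were undetected on all ligament arrays by the probes used, differing by 1.12, 0.70 and 0.12 without a call. Their meniscus means of 5.91, 5.79 and 5.52 lay within or below the lowest detected signals of ligament arrays (5.79 to 6.11). Their lack of detection in ligament therefore cannot be read as a difference. Erg and Emcn were detected on all 3 ligament arrays and differed by -0.51 and -0.97. Erg, also on the list of chondrocyte transcription factors, averaged 8.21 in cartilage, above both tissues. The mean endothelial level was 6.02, 6.77 and 6.33 on meniscus arrays, 6.45, 5.94 and 5.5 on ligament arrays and 5.44 to 5.47 on cartilage arrays. The part of vessels in the Thbd and Col15a1 values was not tested.

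Blood and muscle markers had 1 call each. Hba-a1, an alpha globin chain, was at 8.16, 8.75 and 8.58 on meniscus arrays and at 10.35, 10.06 and 10.28 on ligament arrays, 3.33-fold lower in meniscus (adjusted p = 0.022, limma). It was the call among 6 erythroid markers, whose mean level was 8.74, 8.80 and 9.11 on meniscus arrays and 9.9, 9.0 and 8.96 on ligament arrays. Ttn, the giant muscle protein titin, was undetected on meniscus arrays by the probe used and at 6.06, 6.91 and 6.78 on ligament arrays, at least 2.97-fold lower in meniscus for that probe (adjusted p = 0.028, limma). Another Ttn probe, detected on 1 meniscus array, gave 0.16. The other 4 of 5 tested muscle markers were not called and had a median of 0.66, and Myod1, Acta1 and Ckm were detected on none of the 6 arrays. Cspg4, a proteoglycan of pericytes that cartilage cells also make, was 2.86-fold lower in meniscus (adjusted p = 0.041, limma), the call among 5 smooth muscle and pericyte markers. Cartilage had Cspg4 at 8.67, 8.57 and 8.04, above the meniscus values of 6.46, 6.26 and 6.85 and near the ligament values of 8.37, 8.18 and 7.57. Schwann cell and neuron markers had 0 calls among 5 with a median of 0.73, 2 being higher and 0 lower with an unadjusted p under 0.05. Pmp22 was at 8.76 in meniscus and 8.03 in ligament, Egr2 at 7.5 in meniscus and 6.20 in ligament, and Gap43 at 6.99 in meniscus and 5.79 in ligament. Sox10 and S100b were undetected on all 6 arrays. One epidermal marker, Krt10, passed the filter, at 6.05 in meniscus and 5.68 in ligament, as did 1 osteoblast marker, Sparc, at 11.74 in meniscus and 11.24 in ligament; neither was called. The bone markers Bglap, Sp7, Alpl and Col10a1 were undetected on all 6 arrays.

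**Figure D5:**
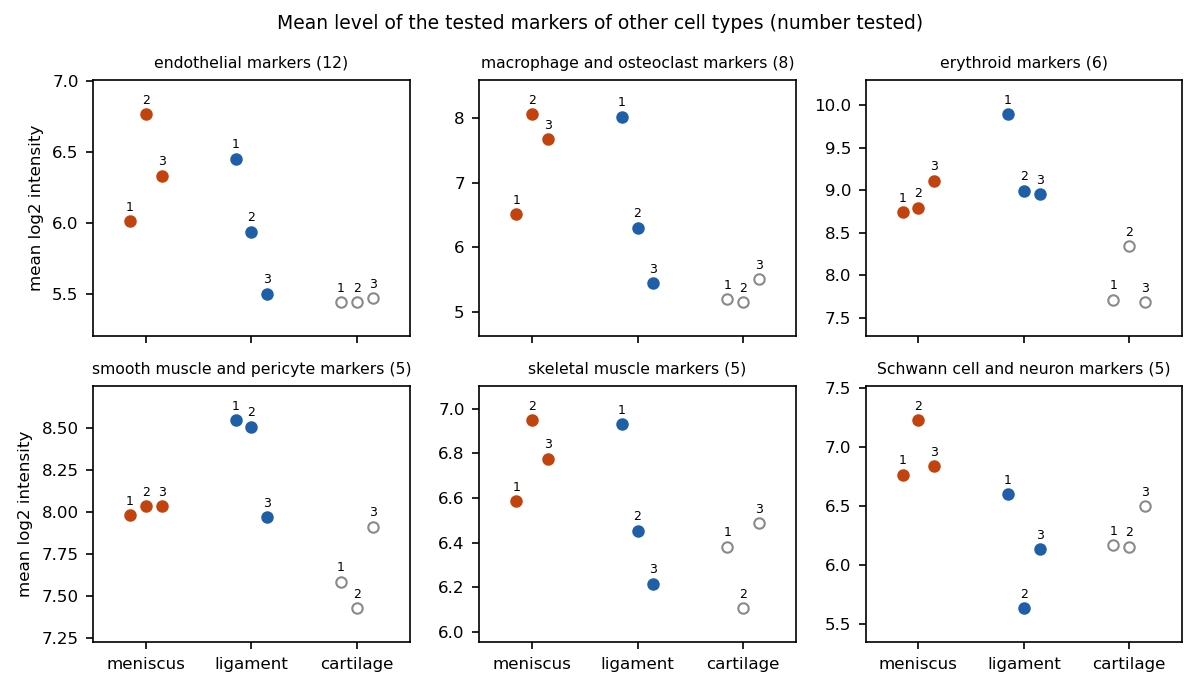
Mean normalised log2 intensity over the tested markers of 6 other cell types on each array, numbered by replicate within meniscus, ligament and cartilage. The axes differ in range and do not start at 0. On the macrophage list meniscus spans 6.51 to 8.06 and ligament 5.44 to 8.02.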

How the data were processed

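RNA had been amplified, labelled with biotin and hybridised to Illumina arrays, per the labels' protocols. The deposited scanner tables hold a linear signal intensity and a detection p-value for each probe and array, per the file headers; the submitters' processing notes name GenomeStudio, with no version in the sources used here. The ligament arrays are a separate set, and their columns lie beside those of the other arrays in the deposited scanner data. The scanner tables carry array addresses, which were paired with the probe identifiers of the authors' deposited value table by matching ranks over the 9 arrays: all 45281 found a unique partner, at a median largest rank difference of 96 against 4549.5 for the next candidate. Of these probes 34885 had 1 gene symbol, 18 several and 10378 none; probes with several or none were not named.

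Intensities were corrected by normexp with negative controls inferred from the detection p-values (nec of limma 3.58.1 in R 4.3.3, offset 16). They were then expressed as log2 and quantile normalised over the 9 arrays. The deposited p-values also set the filter: a probe was kept when its value was under 0.01 on all 3 meniscus or all 3 ligament arrays, which left 11187 probes. The kept probe with the highest mean stood for a gene, giving 8322 features, of which 6617 were named genes and 1705 unnamed; the unnamed had 39 calls higher and 89 lower. Each array was centred on its median over the features. The 6 arrays were fitted with lmFit and eBayes as 2 groups, without cartilage because the ligament spread was about double, and the two-sided p-values were adjusted by Benjamini-Hochberg over all 8322 features at a threshold of 0.05. The fit was also run on simulated data that held no detection floor and no shift between array sets, so that run does not bear on either. The number of arrays limits the precision.

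Genes named are the 12 largest rises and 12 largest falls among calls whose arrays did not overlap, all landmark genes, at most 4 called members of each list in each direction, and the 3 brightest members of a list without calls; genes named only as undetected, and those in the closing observations, were chosen after their values were seen. The comparison, the members and the 39 gene lists were chosen with earlier results of these data known. Replicate numbers are in the labels, but same-numbered meniscus and ligament arrays did not deviate together (r of -0.05, -0.04 and 0.01), so no block was used. Alternatives, 1 of them (undetected values at the lowest detected signal) chosen after seeing the data, covered the arrays fitted, moderation, normalisation, centring, background, filter, probe summary, the block and leaving out each array.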

Additional observations from a re-analysis of the deposited data

How the results depend on the processing

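The called genes of the report kept their direction under each alternative tried. The called genes named under other observations alone were not run. Of all values for the report's tested landmark and called genes, 845 kept their side of the threshold, 299 lost the call, 4 gained it and 3 changed sign. Those 3 were uncalled: Acan was -0.086 as the mean over its kept probes, and Col1a2 was -0.066 without meniscus replicate 1 and -0.004 without meniscus replicate 3, its highest value with an array left out being 0.2. Fitting all 9 arrays gave 515 genes higher and 242 lower, and trended, robust moderation gave 419 higher and 194 lower. Scaling moved mainly the rises: 342 without centring (78.4% of calls higher, median of all genes 0.28) and 285 when centred on features detected on all 6 arrays (74.4%, median 0.25), with 94 and 98 falls. Undetected values raised to the lowest detected signal, a setting chosen after seeing the data, gave 159 rises and 155 falls, of which 85 and 97 were called as reported. Without the detection filter 78.4% of calls were higher. With the replicate number as a block there were 0 calls by limma in either direction, with 868 genes higher and 413 lower with an unadjusted p under 0.05; the numbers did not pair the arrays. Leaving out single arrays gave 0 to 329 rises and 0 to 152 falls; the 0 counts came from each meniscus array, and without ligament 2 there were 180 rises and 78 falls. The cause of these changes was not tested. The lowest detected signal was 4.96 to 5.11 in meniscus and 5.79 to 6.11 in ligament, which limits every rise given as a bound.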

Other observations

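Among called genes detected on all 6 arrays, and in none of the lists above, the largest rises were Ppm1b, a protein phosphatase gene, Ecrg4, a secreted peptide precursor gene, Atad2, a chromatin ATPase gene, and Stc1, stanniocalcin. Ppm1b was at 9.22, 8.34 and 8.57 on meniscus arrays, against 6.36, 6.20 and 6.55 on ligament arrays (5.06-fold, adjusted p = 0.019, limma). Ecrg4 was at 9.41, 9.68 and 9.68 on meniscus arrays, against 8.2, 6.82 and 7.66 on ligament arrays (4.09-fold, adjusted p = 0.035, limma). Stc1 was at 10.15, 10.42 and 9.80 on meniscus arrays, against 8.24, 8.77 and 7.57 on ligament arrays (3.82-fold, adjusted p = 0.035, limma). Atad2 was 4.02-fold higher (adjusted p = 0.017, limma), with another probe in the opposite direction. Among the falls Gdi2 was the largest, 4.24-fold lower in meniscus (adjusted p = 0.029, limma). C1qtnf3, a secreted protein related to collagen and first described in cartilage, followed. It averaged 7.82 ± 0.41 in meniscus and 9.87 ± 0.11 in ligament (SD, n = 3 each), without overlap (4.15-fold lower, adjusted p = 0.019, limma). The chemokine gene Ccl25 was 4.14-fold lower (adjusted p = 0.035, limma), and Med30, of the Mediator complex, 4.05-fold lower (adjusted p = 0.017, limma).

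The arrays differed in Xist, the RNA of the inactive X chromosome, in a way not tied to tissue. On 1 of its 4 probes Xist was at 9.63, 4.28 and 8.27 on meniscus arrays 1, 2 and 3, at 5.06, 9.92 and 10.36 on ligament arrays 1, 2 and 3, and at 9.49, 4.32 and 8.66 on cartilage arrays 1, 2 and 3. The Y-linked gene Eif2s3y, by its brighter probe, was at 4.38, 6.56 and 6.86 on the meniscus arrays, at 8.03, 4.45 and 4.54 on the ligament arrays and at 4.41, 6.74 and 7.08 on the cartilage arrays. Meniscus 3 and cartilage 3 carried both RNAs, and the order of levels in cartilage followed that in meniscus, number by number, on these probes, whereas in ligament the array with the Y-linked RNA was number 1. Each tissue detected Xist on 2 of its 3 arrays, so Xist did not enter the test.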
